A study of Homo sapiens with 9 samples.

Results

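Transcript levels in TGFβ1-treated LX-2 cells given an siRNA against either of 2 collagen cross-linking enzymes, LOX or LOXL1, were compared as one with those given a control siRNA. The equal-weight average of the LOX siRNA and LOXL1 siRNA group means was set against the mean of the control group, so all 9 libraries of the series entered, 6 of them knockdown libraries. LX-2 is an established human hepatic stellate cell line, and every library came from cells treated with TGFβ1 at 10 ng/ml. Each targeting siRNA was present at 25 nM over 48 hours. For the control siRNA no dose, and for none of the siRNAs a sequence, stands in the sources used here. Each group held 3 libraries, and the treatment label of control replicate 3 lacks the word siRNA, so its place in the control group rests on its title. As the labels name no separate cultures, p-values reflect only how far these libraries spread, which may be technical. Each target has a single siRNA condition, so an effect of losing the enzyme and an effect of the reagent cannot be told apart.

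Hepatic stellate cells store vitamin A in the healthy liver. On injury, and under TGFβ1, they take on myofibroblast features and lay down fibrillar collagen. LOX and LOXL1 encode secreted copper-dependent amine oxidases that oxidise lysine side chains of collagen and elastin, the first step of cross-linking. LOXL1 is best known for its part in elastic fibres. A contrast that averages both knockdowns weighs what the losses have in common, and the difference between the knockdowns shows where they part. The size of that difference uses no control library, but its SE and p-value draw on a spread estimated from all 9 libraries.

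The values were FPKM, fragments normalised by transcript length and library total, for 17123 genes. The test covered the 11808 genes that reached 1 FPKM in 3 libraries or more. FPKM summed to 384881 to 396088 per library, and 11663 to 11728 genes reached 1. The table holds no read counts. The lowest values above 0, multiplied by transcript length, came to a median of 58.7 to 60.5 FPKM times bases per library over 985 genes, so depth was near equal if each stands for 1 fragment. Across genes, libraries of 1 group correlated at a Pearson's r of 0.996 to 0.998 and those of different groups at 0.995 to 0.997. The line carried stellate and fibroblast genes such as VIM, TAGLN, COL1A1 and THY1. The 13 markers of this kind, led by VIM and TAGLN, summed to 2322 to 2520 FPKM in control. Their sums were 2297 to 2520 FPKM with LOX siRNA and 2377 to 2491 FPKM with LOXL1 siRNA. Of these 13 markers 8 had a mean of 1 FPKM or more. LUM, LRAT, PDGFRA and RGS5 had 0.03 to 0.41 FPKM over all libraries, and DCN was at or near 0. Of the 7 hepatocyte and 6 endothelial markers in the table, 0 had a mean of 1 FPKM. Epithelial markers, led by KRT18, summed to 217 to 241 FPKM and leukocyte markers, led by CD68, to 41.5 to 48.2 FPKM over all libraries, with group ranges that overlapped. In such bulk libraries fewer cells of a type and less RNA per cell cannot be told apart.

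Control replicate 2 stood apart from the other 8 libraries by base composition. Its deviation from the mean of all libraries correlated with transcript GC content across genes at a Spearman's rho of 0.695, while the others lay between -0.305 and 0.168. The averaged difference itself correlated with GC content at a rho of -0.403 across genes, and at 0.05 without control replicate 2. Its correlation with transcript length was -0.151, and -0.336 without that library. Genes are not independent replicates, so these values are descriptions. Because 1 of only 3 controls carries this slope, the median of each gene list is also given without control replicate 2 and after removal of each library's trend on length and GC content, below or in the plot of list medians.

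**Figure D1:**
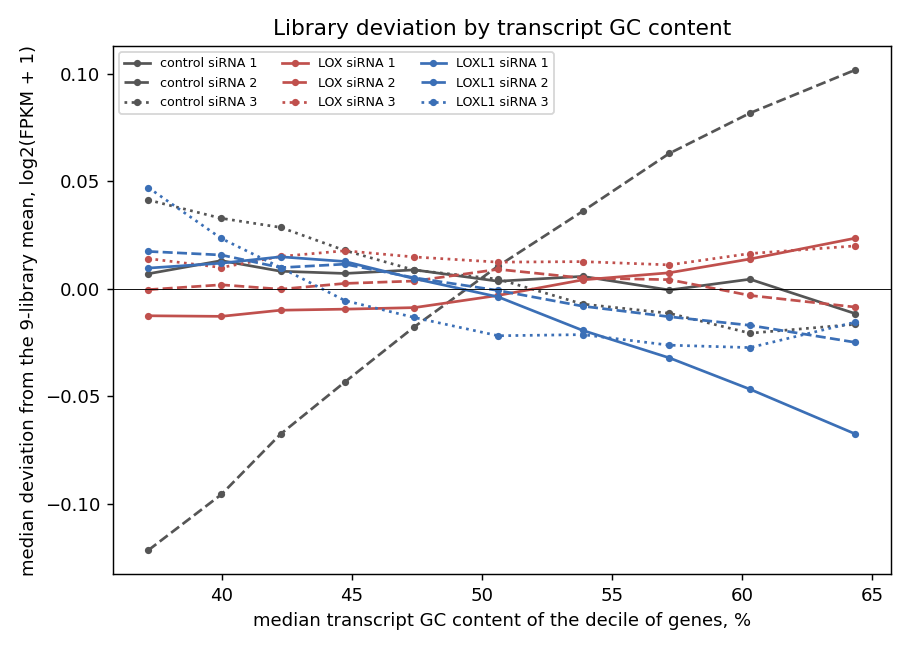
Median deviation of each library from the 9-library mean (log2(FPKM + 1), vertical axis) in 10 equal groups of tested genes ordered by transcript GC content (percent, horizontal axis), 1 line per library. Control replicate 2 runs from -0.12 where the median GC content is 37.2% to 0.10 where it is 64.3%, and the other lines stay closer to 0.

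Both targeted genes stood lower on average, and each only through its own siRNA. LOX lies on chromosome 5 at 122063195 to 122078501 on the minus strand (GRCh38 positions of the deposited table). In control libraries LOX had 47.7, 42.8 and 48.1 FPKM. With LOX siRNA it had 28.9, 30.8 and 25.6 FPKM, and with LOXL1 siRNA 51.9, 49.5 and 51.9 FPKM. The 3 LOX siRNA libraries lay below every control and the 3 LOXL1 siRNA libraries above every control. Its averaged log2 difference was -0.27 (SE 0.05, limma, adjusted p = 0.388), made of -0.68 for LOX siRNA (adjusted p = 0.000673) and 0.14 for LOXL1 siRNA (adjusted p = 0.456).

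LOXL1 lies on chromosome 15 at 73926458 to 73952141 on the plus strand. It had 12.2, 13.5 and 11.3 FPKM in control, 12.5, 10.6 and 11.9 FPKM with LOX siRNA, and 5.66, 7.26 and 7.49 FPKM with LOXL1 siRNA. The LOXL1 siRNA libraries lay below all the others, whereas those of LOX siRNA overlapped the controls. The averaged log2 difference was -0.42 (SE 0.08, limma, adjusted p = 0.362), from -0.07 (adjusted p = 0.910) and -0.78 (adjusted p = 0.00432) for the single knockdowns. LOX overlaps SRFBP1 and LOXL1 overlaps LOXL1-AS1, in both cases on the opposite strand, and the sources used here do not state whether fragments were counted by strand. A large averaged value thus need not be shared by both knockdowns. The contrasts of each knockdown with control use the same 3 control libraries, so their values are not independent of each other.

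The other family members stayed near their control levels. LOXL2, a paralogue with the same enzymatic activity, had 85.7, 94.6 and 84.7 FPKM in control, 89.9, 87.9 and 86.2 FPKM with LOX siRNA, and 86.6, 86.4 and 89.0 FPKM with LOXL1 siRNA. All knockdown libraries lay inside the control range, and the averaged log2 difference was -0.0090 (95% interval -0.09 to 0.07, limma, adjusted p = 0.971). LOXL3 stood at 0.06 (95% interval -0.09 to 0.20; adjusted p = 0.856) and LOXL4, near the detection filter with 0.81 to 1.25 FPKM over all libraries, at 0.03 (95% interval -0.16 to 0.21; adjusted p = 0.962).

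No gene of 11808 passed an adjusted p of 0.05 in the averaged contrast, in either direction (limma with Benjamini-Hochberg adjustment, 0%). Unadjusted p-values lay under 0.05 in 882 genes (7.47%), 436 of them higher (3.69%) and 446 lower (3.78%). Fits without the mean-variance trend and without the filter on low values each called 1 gene, and a fit that pooled the 6 knockdown libraries as 1 group called 0. The smallest adjusted p was 0.0883, and it belonged to the 3 genes under 0.1, which are C11orf74, AGAP9 and NPTXR. The direct comparison of the knockdowns, in the same model, called 25 genes (0.212%). LOX siRNA against control called 1 (0.00847%) and LOXL1 siRNA against control 9 (0.0762%).

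The intervals of the averaged contrast were narrow. The median SE was 0.0485 and the median 95% interval reached 0.105 to either side on the log2(FPKM + 1) scale. For 11424 genes (96.7%) the unadjusted interval lay wholly inside a 1.25-fold change in either direction, and for 11764 (99.6%) inside a 1.5-fold change. Of 8980 genes with a mean of 5 FPKM or more, where the pseudocount weighs little, 8907 (99.2%) had intervals inside 1.25-fold. LOXL1 was the 1 gene of that class whose averaged difference itself was larger than 1.25-fold. The intervals are per gene, with no adjustment for the number of genes.

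In 336 genes (2.85%) all 6 knockdown libraries lay on one side of all 3 control libraries, above them in 163 (1.38%) and below them in 173 (1.47%). For a single gene this order of 6 against 3 libraries has an exact two-sided permutation p of 0.0238, the smallest the design allows. Libraries in random order would give it in 2.38% of genes, close to the 2.85% seen. Differences in the 336 genes were small. Among the 276 of these genes with a mean of 5 FPKM or more, the median size was 0.103 on the log2 scale and the largest was 0.264, for COQ3. The difference between the knockdowns passed its own test in 1 of the 336 genes, NPTXR, beside 25 of all 11808 genes tested (0.212%).

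**Figure D2:**
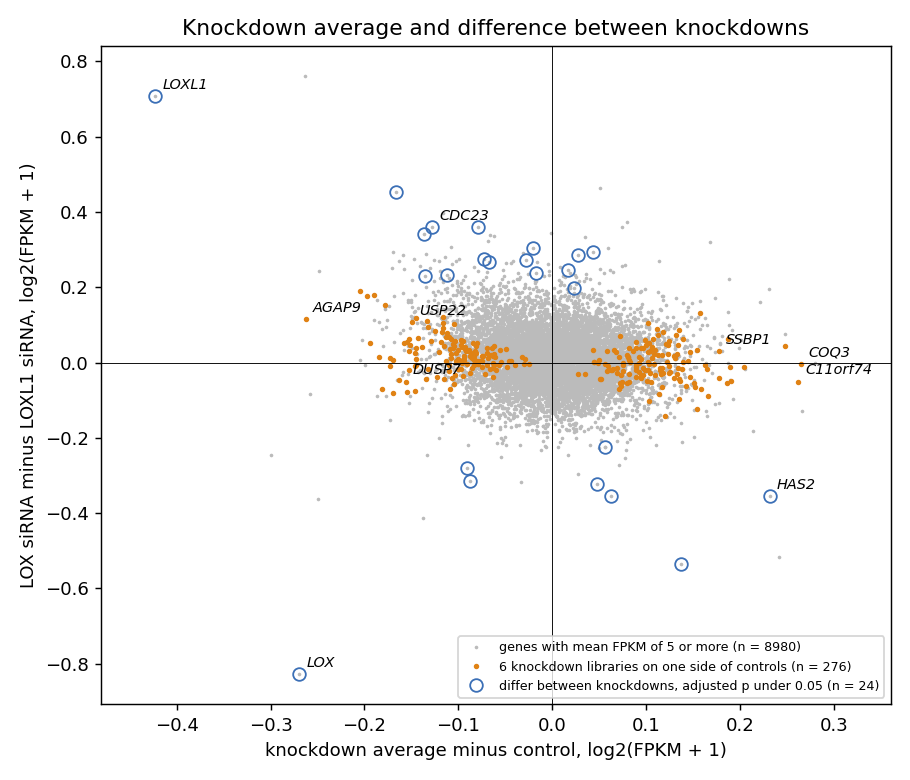
Averaged knockdown minus control (horizontal axis) against LOX siRNA minus LOXL1 siRNA (vertical axis), both in log2(FPKM + 1), for the 8980 genes with a mean of 5 FPKM or more (grey). Orange points are the 276 genes with all 6 knockdown libraries on one side of the controls, and blue rings are the 24 genes that differ between the knockdowns. LOX and LOXL1 lie far from the horizontal line, while C11orf74, COQ3 and SSBP1 lie close to it on the right.

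The higher of these genes were led by C11orf74, named IFTAP in newer annotations, whose product associates with the intraflagellar transport machinery of cilia. It lies on chromosome 11 at 36594493 to 36659291 on the plus strand. In control it had 13.4, 14.5 and 14.1 FPKM, with LOX siRNA 16.8, 16.7 and 16.6 FPKM, and with LOXL1 siRNA 16.5, 17.2 and 18.3 FPKM. All 6 knockdown libraries exceeded the highest control by more than the control range. The averaged log2 difference was 0.26 (SE 0.04, 95% interval 0.17 to 0.35, limma, adjusted p = 0.0883), and 0.21 (adjusted p = 0.195) with length and GC trends removed. Over all alternatives the adjusted p lay between 0.0746 and 0.702. LOX siRNA gave 0.24 (adjusted p = 0.423) and LOXL1 siRNA 0.29 (adjusted p = 0.0490), and the difference between them was -0.05 (95% interval -0.15 to 0.05, adjusted p = 0.698). RAG2, which overlaps it on the opposite strand, had a mean of 0.009 FPKM.

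COQ3, a methyltransferase of ubiquinone synthesis, had 5.80, 5.98 and 6.19 FPKM in control, 6.91, 7.71 and 7.56 FPKM with LOX siRNA, and 7.87, 6.83 and 7.54 FPKM with LOXL1 siRNA. The knockdown groups overlapped each other and lay wholly above the controls. The averaged log2 difference was 0.26 (SE 0.05, limma, adjusted p = 0.388), and the knockdowns differed by -0.0027 (95% interval -0.13 to 0.13). SSBP1, which binds single-stranded mitochondrial DNA, had 109, 102 and 104 FPKM in control, 121, 115 and 124 FPKM with LOX siRNA, and 123, 117 and 113 FPKM with LOXL1 siRNA. Its averaged difference was 0.18 (adjusted p = 0.446).

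The remaining 7 genes taken by the naming rule on the higher side had averaged differences of 0.15 to 0.25. They were IFT46, a subunit of the intraflagellar transport complex (0.18), SMIM20 and CHCHD1, small mitochondrial proteins (0.16 and 0.20), UBE2V2, a cofactor of ubiquitin conjugation (0.19), SRI, a calcium-binding protein (0.15), GEMIN2 of the SMN complex that assembles spliceosomal particles (0.25), and PSPH, which completes serine synthesis (0.16). Their adjusted p-values were 0.456 to 0.459 (limma). UBE2V2 had 31.6, 29.5 and 34.9 FPKM in control and 35.9 to 37.5 FPKM over the 6 knockdown libraries. In 9 of the 10 higher genes the 95% interval of the difference between knockdowns included 0; the exception was SMIM20, with 12.7 to 12.9 FPKM with LOX siRNA and 11.2 to 11.8 FPKM with LOXL1 siRNA. All 10 differences were smaller with length and GC trends removed.

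The lower genes were led by AGAP9, a member of a family of GTPase-activating protein genes on chromosome 10. It lies at 47501854 to 47523638 on the minus strand and has near-identical copies, so its fragments may be shared between them. In control AGAP9 had 13.6, 13.1 and 13.95 FPKM. With LOX siRNA it had 11.2, 11.6 and 12.1 FPKM, and with LOXL1 siRNA 10.7, 10.7 and 10.5 FPKM. Every knockdown library lay below every control, those of LOXL1 siRNA lowest. The averaged log2 difference was -0.26 (SE 0.04, 95% interval -0.35 to -0.17, limma, adjusted p = 0.0883), and -0.26 (adjusted p = 0.113) with length and GC trends removed. Its adjusted p lay between 0.0746 and 0.702 over the alternatives. LOXL1 siRNA alone gave -0.32 (adjusted p = 0.0179) and LOX siRNA -0.20 (adjusted p = 0.423), and their difference was 0.12 (95% interval 0.02 to 0.22, adjusted p = 0.316).

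DUSP7, a phosphatase that dephosphorylates ERK, had 25.7, 25.6 and 24.4 FPKM in control, 22.4, 22.1 and 22.0 FPKM with LOX siRNA, and 22.7, 23.1 and 23.1 FPKM with LOXL1 siRNA. The knockdown libraries lay together below the controls, and the averaged log2 difference was -0.16 (SE 0.03, limma, adjusted p = 0.446). MYRF, a membrane-bound transcription factor, had 17.0, 17.3 and 16.1 FPKM in control and 14.6 to 15.3 FPKM over the 6 knockdown libraries (-0.17, adjusted p = 0.446). It overlaps the more abundant TMEM258 on the opposite strand. ATP8B2, a phospholipid flippase, stood at -0.19 (adjusted p = 0.446).

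ASAP1, a GTPase-activating protein of the Arf family found at focal adhesions, had 45.1, 42.8 and 42.8 FPKM in control, 37.1, 37.5 and 37.4 FPKM with LOX siRNA, and 42.4, 38.7 and 36.9 FPKM with LOXL1 siRNA. LOXL1 siRNA replicate 1 came close to the controls, and the averaged difference was -0.18 (limma, adjusted p = 0.456). VASN, a membrane protein that binds TGFβ, had 21.8, 23.2 and 21.5 FPKM in control, 21.3, 19.8 and 20.8 FPKM with LOX siRNA, and 17.5, 17.9 and 18.9 FPKM with LOXL1 siRNA. Its LOX siRNA libraries lay just under the controls and its LOXL1 siRNA libraries clearly lower, for an averaged difference of -0.19 (adjusted p = 0.446) and a difference between knockdowns of 0.18 (95% interval 0.08 to 0.28, adjusted p = 0.142).

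The same uneven order was seen in USP22, a deubiquitinase of the SAGA complex (-0.15), ADA, adenosine deaminase (-0.21), GDPD5, a glycerophosphodiester phosphodiesterase (-0.18), and FAM72C, one of several near-identical copies (-0.20), each with an adjusted p of 0.456 (limma). In 6 of the 10 lower genes the interval of the difference between knockdowns excluded 0, each time with the lower level under LOXL1 siRNA. In 0 of the 10 did that difference pass the adjusted threshold. Over all 11808 genes tested, that interval excluded 0, an unadjusted p under 0.05 (limma), in 1513. The named genes were picked by their averaged values, so such counts describe no wider group. Of the 10 lower genes, 9 had smaller differences with the trends removed.

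NPTXR, a neuronal pentraxin receptor gene, had the joint smallest adjusted p but a mean below 5 FPKM, outside the naming rule; it was picked with its values in view. It lies on chromosome 22 at 38818451 to 38844012 on the minus strand. It had 3.46, 3.41 and 3.08 FPKM in control, 2.64, 2.90 and 2.94 FPKM with LOX siRNA, and 1.96, 1.87 and 1.89 FPKM with LOXL1 siRNA. All 3 groups were separate, in that order. The averaged log2 difference was -0.37 (SE 0.06, limma, adjusted p = 0.0883, and 0.0469 without the mean-variance trend). The knockdowns differed by 0.40 (SE 0.07, adjusted p = 0.0375), so the averaged value stands for -0.17 with LOX siRNA and -0.57 with LOXL1 siRNA.

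**Figure D3:**
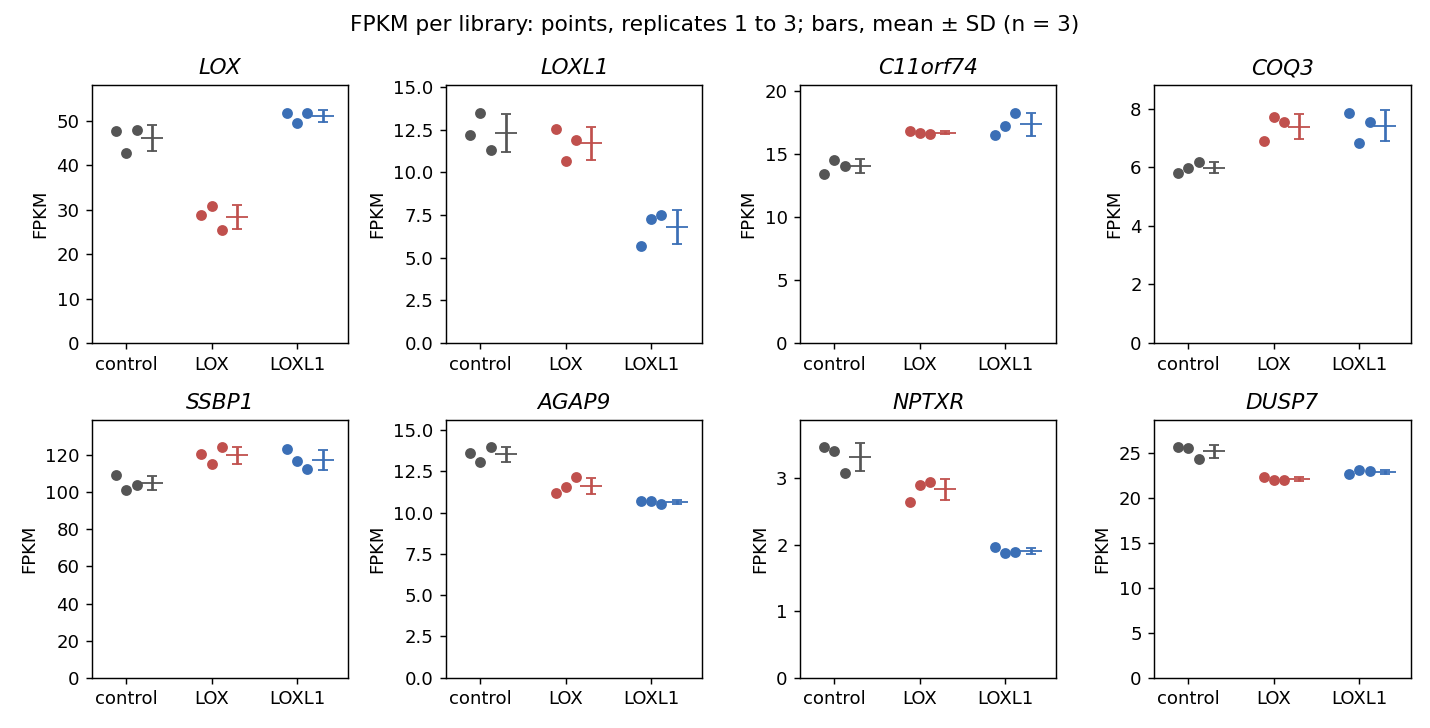
FPKM (linear axes from 0) of 8 genes in each library: grey, control; red, LOX siRNA; blue, LOXL1 siRNA; points are replicates 1 to 3 and bars mean ± SD (n = 3). LOX and LOXL1 are low under their own siRNA only, C11orf74, COQ3 and SSBP1 are higher in all 6 knockdown libraries, and AGAP9, NPTXR and DUSP7 lower in all 6.

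The genes most used to describe activated stellate cells stayed close to control in the average. These 14 genes were chosen after their values were seen. COL1A1, which encodes the major chain of collagen I, had 234, 258 and 218 FPKM in control, 238, 233 and 211 FPKM with LOX siRNA, and 223, 209 and 232 FPKM with LOXL1 siRNA. The groups overlapped throughout, control replicate 2 being the highest library. The averaged log2 difference was -0.07 (95% interval -0.19 to 0.04, limma, adjusted p = 0.778), and -0.01 both without control replicate 2 and with length and GC trends removed.

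COL1A2, its partner chain, had 4.12, 4.09 and 3.78 FPKM in control, 4.50, 4.38 and 3.82 FPKM with LOX siRNA, and 3.43, 3.44 and 4.84 FPKM with LOXL1 siRNA, with overlapping groups (0.01, 95% interval -0.17 to 0.19). COL3A1, the chain of type III collagen, averaged -0.08 (95% interval -0.28 to 0.11). FN1, fibronectin, had 758, 766 and 732 FPKM in control, 813, 805 and 646 FPKM with LOX siRNA, and 766, 721 and 734 FPKM with LOXL1 siRNA, for an average of -0.01 (95% interval -0.14 to 0.12). The LOX siRNA libraries spread more widely than the other groups. SPARC, a collagen-binding matricellular protein, stood at 0.01 (95% interval -0.07 to 0.09).

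Direct TGFβ targets were likewise near control. CTGF, now called CCN2, had 109, 113 and 110 FPKM in control, 118, 124 and 110 FPKM with LOX siRNA, and 121, 112 and 116 FPKM with LOXL1 siRNA (0.08, 95% interval -0.0099 to 0.16; limma, adjusted p = 0.703). Its knockdown libraries lay mostly above the controls, with 1 library of each knockdown within their range. ACTA2, smooth muscle actin, had 7.05, 8.22 and 7.27 FPKM in control, 8.31, 7.61 and 6.71 FPKM with LOX siRNA, and 6.56, 6.61 and 7.75 FPKM with LOXL1 siRNA, with full overlap (-0.05, 95% interval -0.20 to 0.10). TAGLN, an actin-binding protein of smooth muscle, stood at 0.07 (95% interval -0.07 to 0.21).

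TGFB1, the ligand, had 100, 110 and 95.3 FPKM in control, 101, 93.1 and 94.5 FPKM with LOX siRNA, and 90.5, 92.1 and 95.01 FPKM with LOXL1 siRNA. Its averaged log2 difference of -0.11 (95% interval -0.20 to -0.01) had an adjusted p of 0.608 (limma), and was -0.05 without control replicate 2. PDGFRB, the receptor for the stellate cell mitogen PDGF, had 7.25, 7.75 and 7.33 FPKM in control, 7.48, 6.52 and 6.30 FPKM with LOX siRNA, and 6.05, 6.47 and 6.50 FPKM with LOXL1 siRNA. LOX siRNA replicate 1 lay within the controls and the other 5 knockdown libraries below them (-0.16, 95% interval -0.28 to -0.05, adjusted p = 0.572). MMP2, a gelatinase, had 22.4, 23.2 and 20.9 FPKM in control, 22.2, 21.5 and 19.4 FPKM with LOX siRNA, and 15.9, 18.2 and 22.6 FPKM with LOXL1 siRNA. Its interval reached the farthest below 0 among the 14 genes (-0.15, 95% interval -0.33 to 0.02, adjusted p = 0.704). MMP14 stood at -0.06 (95% interval -0.19 to 0.07) and TIMP1, an inhibitor of matrix proteases, at 0.01 (95% interval -0.15 to 0.18).

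For 13 of the 14 genes the unadjusted 95% interval lay inside a 1.25-fold change in either direction; the exception was MMP2. The interval included 0 for 12 of them, all but TGFB1 and PDGFRB. A missed threshold does not show that levels were equal, and these intervals state how large a difference the libraries still allow. Over all 11808 genes tested, the interval lay inside 1.25-fold in 11424 (96.7%). It excluded 0, an unadjusted p under 0.05 (limma), in 882 (7.47%). The 14 genes were picked with their values in view, so their counts do not show them to be steadier than other genes.

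**Figure D4:**
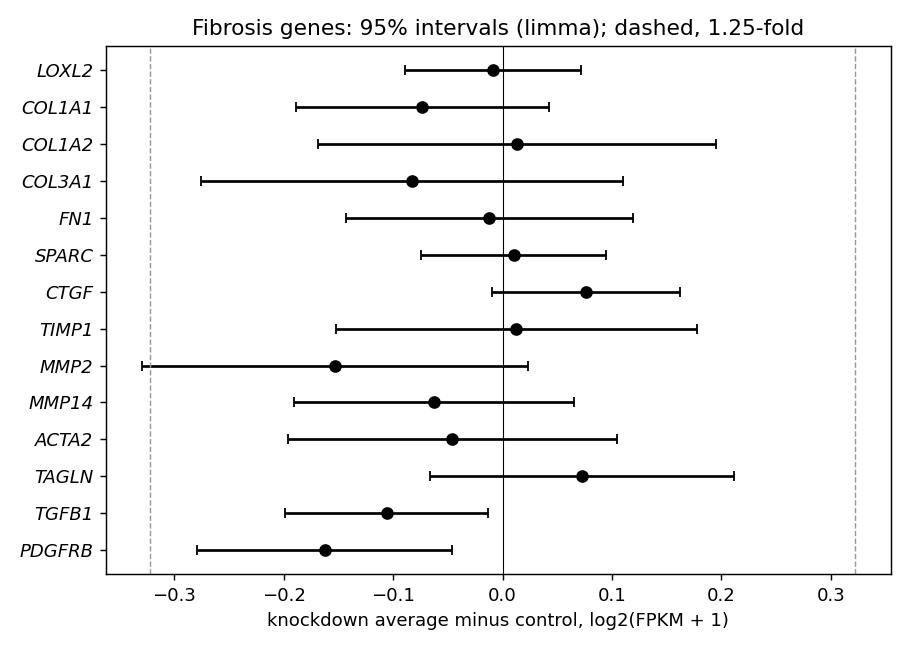
Averaged knockdown minus control (log2(FPKM + 1), horizontal axis) with its unadjusted 95% limma interval for 14 fibrosis genes; dashed lines mark a 1.25-fold change. The points lie between -0.16 for PDGFRB and 0.08 for CTGF, and the interval of MMP2 crosses a dashed line.

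Across 28 gene lists, 755 of 836 listed genes were tested and 0 passed, as in the table as a whole. Of these, 91 were under an unadjusted p of 0.05 (12.1%, beside 7.47% of all genes tested), and 27 had all knockdown libraries on one side of the controls (3.58%, beside 2.85%). The lists hold LOX and LOXL1 themselves and were chosen with earlier results of these data known. The shares are thus no test of enrichment. List medians of the averaged log2 difference ran from -0.10 to 0.04, where the median of all tested genes was -0.0019. They were above 0 in 8 lists and below 0 in 20. With length and GC trends removed the median moved nearer 0 in 21 lists and changed sign in 6, and it changed sign in 2 without control replicate 2. No list was tested as a set, and genes that share length and base composition move together.

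Collagen chains mostly stood below control in the average, by little. Of 30 chains listed 18 were tested, 16 had an averaged value below 0, and 0 passed. The 6 tested fibrillar chains had a median of -0.07, and the 12 other chains -0.07. Without control replicate 2 these medians were -0.04 and -0.06, and with length and GC trends removed -0.02 and -0.02. In order of replicate, the fibrillar chains deviated from the mean of all libraries by 0.041, 0.068 and -0.035 in control. They lay at 0.060, 0.022 and -0.121 with LOX siRNA and at -0.101, -0.094 and 0.064 with LOXL1 siRNA. The other chains lay at 0.074, 0.095 and 0.0020 in control and 0.050, 0.016 and -0.026 with LOX siRNA. With LOXL1 siRNA they lay at -0.098, -0.077 and 0.015. In both lists the groups overlapped. The median GC content of the fibrillar chains was 57.5% and of the others 60.3%, against 48.8% over all genes tested, and the slope of control replicate 2 runs in the same direction; its part in the result was not tested.

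Among single chains, COL8A1, a short-chain collagen, had 16.5, 15.9 and 16.1 FPKM in control, 13.7, 13.6 and 15.0 FPKM with LOX siRNA, and 15.1, 15.2 and 14.4 FPKM with LOXL1 siRNA. All knockdown libraries lay below the controls, with an averaged log2 difference of -0.15 (SE 0.04, limma, adjusted p = 0.554), and -0.13 with the trends removed. COL16A1, a fibril-associated chain, had 5.59, 5.57 and 5.54 FPKM in control, 4.91, 4.86 and 5.11 FPKM with LOX siRNA, and 4.85, 4.51 and 5.44 FPKM with LOXL1 siRNA. It too lay below all controls, at -0.14 (adjusted p = 0.573), and at -0.08 with the trends removed. COL5A1 and COL18A1 stood at -0.06 and -0.07, and at 0.0040 and 0.0037 with the trends removed.

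Enzymes and chaperones of collagen processing had 16 of 18 tested members below 0, with a median of -0.03 that was -0.0049 without control replicate 2 and -0.0039 with the trends removed. ADAMTS2, which removes the amino-terminal propeptide of procollagen, stood lowest at -0.22 (limma, adjusted p = 0.572) at 1.04 to 1.84 FPKM over all libraries. PLOD2, a lysyl hydroxylase that directs cross-link type, stood at 0.08. Without control replicate 2 ADAMTS2 was at -0.20 and PLOD2 at 0.02, and with the trends removed they were at -0.17 and 0.03. Elastic fibre and microfibril genes had 10 of 12 below 0 and a median of -0.06, of -0.03 without control replicate 2 and of -0.0080 with the trends removed. FBN1, which forms the microfibril scaffold, had 15.3, 13.9 and 14.1 FPKM in control, 13.8, 13.4 and 12.9 FPKM with LOX siRNA, and 14.3, 13.9 and 13.7 FPKM with LOXL1 siRNA (-0.07, adjusted p = 0.736). Its LOX siRNA libraries lay below the controls, and its LOXL1 siRNA libraries overlapped them.

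Laminins, proteoglycans and matricellular genes had 11 above and 18 below 0, with a median of -0.02 that was 0.01 with the trends removed. LAMA5, a laminin chain of basement membranes, had 10.95, 11.8 and 10.2 FPKM in control, 9.91, 9.12 and 9.96 FPKM with LOX siRNA, and 9.21, 10.1 and 9.58 FPKM with LOXL1 siRNA. It lay below all controls in each knockdown library, at -0.17 (limma, adjusted p = 0.572) and at -0.08 with the trends removed. HAS2, which makes hyaluronan, had 9.03, 8.56 and 9.26 FPKM in control, 9.70, 9.32 and 8.96 FPKM with LOX siRNA, and 12.3, 11.6 and 12.7 FPKM with LOXL1 siRNA. Its averaged value of 0.23 (adjusted p = 0.385) joined 0.05 with LOX siRNA and 0.41 with LOXL1 siRNA, which differed by -0.36 (SE 0.05, adjusted p = 0.0146). Matrix proteases and their inhibitors were even, with 11 members above and 11 below 0.

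Of the TGFβ and Smad pathway genes, 11 were above and 18 below 0, with a median of -0.01, from -0.0068 with LOX siRNA and -0.04 with LOXL1 siRNA. Without control replicate 2 the median was -0.04, and with the trends removed -0.03. Besides VASN, the coreceptor ENG (-0.08, limma, adjusted p = 0.572) and the ubiquitin ligase SMURF1 (-0.06, adjusted p = 0.701) lay below all controls in each knockdown library, while SMURF2, a related ligase, stood at 0.10 (adjusted p = 0.572). Myofibroblast contractile genes had 12 above and 9 below, with TPM4, a tropomyosin, at 0.10 and CALD1, caldesmon, at 0.10. Their median was 0.02 with all libraries, 0.04 with the trends removed, and between -0.02 and 0.04 with 1 library left out, the highest being without control replicate 2. The YAP and TEAD targets had 16 above and 8 below, a median of 0.01, from -0.02 with LOX siRNA and 0.04 with LOXL1 siRNA. In each knockdown library CYR61 (0.05) lay above all controls, and AJUBA (-0.10), ARHGEF17 (-0.10) and ASAP1 (-0.18) lay below them. With the trends removed ARHGEF17 stood at -0.03 and ASAP1 at -0.18. CYR61, now called CCN1, is a matricellular protein, and AJUBA a LIM-domain scaffold.

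Integrin subunits and focal adhesion genes had 23 of 29 below 0, with a median of -0.04, the same without control replicate 2, and -0.01 with the trends removed. ITGB5, the integrin beta chain that pairs with alpha V, had 10.3, 11.2 and 10.95 FPKM in control, 10.4, 9.85 and 9.78 FPKM with LOX siRNA, and 8.85, 8.96 and 8.58 FPKM with LOXL1 siRNA. The LOX siRNA libraries reached into the control range and the LOXL1 siRNA libraries did not, and the averaged log2 difference was -0.19 (SE 0.04, limma, adjusted p = 0.456). FERMT2, kindlin-2, which activates integrins, stood above all controls in each knockdown library (0.10, adjusted p = 0.554), and TNS3, a tensin, below them (-0.15, adjusted p = 0.554).

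Genes of quiescent stellate cells had the lowest median of the 28 lists with all 9 libraries. Of 18 listed 8 were tested, 6 of them below 0, with a median of -0.10, and of -0.07 with the trends removed. Without control replicate 2 it was -0.05, and the chains outside the fibrillar collagens then lay lower, at -0.06. LHX2, a transcription factor that keeps stellate cells quiescent in mice, had 14.3, 14.3 and 13.6 FPKM in control, 12.9, 13.3 and 13.9 FPKM with LOX siRNA, and 12.4, 11.7 and 11.96 FPKM with LOXL1 siRNA. The LOXL1 siRNA libraries lay below all the others, and the averaged log2 difference was -0.14 (SE 0.04, limma, adjusted p = 0.554). PDGFRB, on the same list, marks both quiescent and activated stellate cells.

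Mitosis genes stood slightly above control in the average. Of 33 tested, 30 had an averaged value above 0, with a median of 0.04, and of 0.03 without control replicate 2 and 0.02 with the trends removed. The median was 0.03 with LOX siRNA and 0.06 with LOXL1 siRNA. In order of replicate, the list deviated from the mean of all libraries by -0.015, -0.058 and -0.00044 in control. It lay at 0.0082, 0.027 and -0.049 with LOX siRNA and at 0.074, 0.033 and 0.0012 with LOXL1 siRNA. LOX siRNA replicate 3 thus stood within the control range. AURKB, a kinase of chromosome segregation, had 70.3, 73.6 and 70.5 FPKM in control, 77.0, 77.7 and 73.99 FPKM with LOX siRNA, and 76.5, 76.9 and 78.3 FPKM with LOXL1 siRNA. It lay above all controls in all 6 knockdown libraries, at 0.10 (SE 0.03, limma, adjusted p = 0.572). CDK1 stood at 0.09 (adjusted p = 0.653), and at 0.02 with the trends removed. CDC23, a subunit of the anaphase-promoting complex, had 24.5, 24.8 and 25.6 FPKM in control, 25.8, 25.7 and 26.2 FPKM with LOX siRNA, and 20.3, 20.2 and 19.5 FPKM with LOXL1 siRNA. Its average of -0.13 (adjusted p = 0.554) joined 0.05 with LOX siRNA and -0.31 with LOXL1 siRNA. The replication and G1/S genes had 17 above and 19 below 0.

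Short, abundant housekeeping transcripts had averages above 0. For the ribosomal protein and oxidative phosphorylation lists these came mostly from LOX siRNA. Cytosolic ribosomal protein genes had 74 of 79 members above 0 and a median of 0.04, from 0.09 with LOX siRNA and 0.0062 with LOXL1 siRNA. Nuclear genes of oxidative phosphorylation had 55 of 72 above 0 and a median of 0.04, from 0.07 and 0.0020. Proteasome subunits had 25 of 32 above 0, with a median of 0.03, from 0.05 with LOX siRNA and 0.02 with LOXL1 siRNA. Their median transcript lengths were 829, 967 and 1560 bases, against 3220 over all genes tested, and LOX siRNA libraries deviated with transcript length at a Spearman's rho of -0.285 to -0.249, where those of LOXL1 siRNA lay between -0.0489 and 0.308 and the controls, in order of replicate, at 0.376, -0.166 and 0.138. The part of length in these medians was not tested; with length and GC trends removed they were 0.03, 0.02 and 0.01, and without control replicate 2 they were 0.07, 0.04 and 0.03. ATP5C1, a subunit of ATP synthase, had 78.3, 79.9 and 81.1 FPKM in control, 87.0, 89.4 and 87.3 FPKM with LOX siRNA, and 87.2, 83.1 and 82.4 FPKM with LOXL1 siRNA, above all controls (0.11, limma, adjusted p = 0.554, and 0.06 with the trends removed).

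Interferon-stimulated genes, which respond to double-stranded RNA as well as to interferon, mostly stood below control. Of 40 tested, 35 had an averaged value below 0, with a median of -0.06, from -0.0097 with LOX siRNA and -0.10 with LOXL1 siRNA. It was -0.04 without control replicate 2 and -0.05 with the trends removed. The LOXL1 siRNA replicates did not share this fall. In order of replicate, the list deviated from the mean of all libraries by -0.138, -0.092 and 0.051 with LOXL1 siRNA. The controls lay at 0.027, 0.053 and 0.031, and the LOX siRNA libraries at 0.011, 0.00079 and 0.025. LOXL1 siRNA replicate 3 thus stood within the control range. STAT2, a component of the interferon-activated transcription complex, had 21.5, 20.2 and 21.3 FPKM in control, 19.3, 20.1 and 20.2 FPKM with LOX siRNA, and 18.6, 18.0 and 18.3 FPKM with LOXL1 siRNA. Its highest LOX siRNA library lay just under its lowest control, and the averaged log2 difference was -0.13 (SE 0.04, limma, adjusted p = 0.554). The NF-κB and inflammatory cytokine genes had 23 of 28 below 0 and a median of -0.04, from 0.02 with LOX siRNA and -0.09 with LOXL1 siRNA. That median was 0.03 without LOXL1 siRNA replicate 1 and -0.11 without LOXL1 siRNA replicate 3, the extremes over libraries left out. NFKBIA, the inhibitor that NF-κB induces, spread from 43.9 to 62.3 FPKM within the LOXL1 siRNA group alone. The genes of the RNA interference machinery had 7 above and 8 below 0, with a median of -0.0027.

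Cholesterol synthesis and SREBP2 genes had 23 of 29 members below 0, with a median of -0.03, from -0.0082 with LOX siRNA and -0.06 with LOXL1 siRNA. It was -0.04 without control replicate 2 and -0.03 with the trends removed. In order of replicate, the list deviated from the mean of all libraries by 0.034, 0.028 and 0.017 in control. It lay at 0.026, 0.022 and -0.0081 with LOX siRNA and at -0.076, -0.041 and 0.0072 with LOXL1 siRNA. HSD17B7, an enzyme of the cholesterol route, had 14.9, 14.7 and 15.4 FPKM in control, 13.8, 14.7 and 14.1 FPKM with LOX siRNA, and 12.4, 14.04 and 13.7 FPKM with LOXL1 siRNA. Each knockdown library lay below the lowest control, LOX siRNA replicate 2 by the least, and the averaged log2 difference was -0.12 (SE 0.04, limma, adjusted p = 0.574), and -0.15 with the trends removed. PMVK, phosphomevalonate kinase, stood at 0.19 (adjusted p = 0.572).

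Medians of the other lists lay within 0.03 of 0, and several joined a value above 0 with LOX siRNA and one below 0 with LOXL1 siRNA, such as 0.0058 and -0.05 for p53 targets and 0.01 and -0.03 for NRF2 targets. The averaged medians were -0.02 for p53 targets, with 9 of 24 above 0, -0.02 for NRF2 targets, with 8 of 21, and 0.0095 for chaperones of the endoplasmic reticulum and the unfolded protein response, with 17 of 32. Glycolysis and hypoxia genes had a median of 0.00019, with 14 of 27 above 0. Immediate early genes had -0.02, with 9 of 24 above 0, growth factors and their receptors -0.01, with 10 of 25, and lysosome and autophagy genes -0.01, with 13 of 33. MET, the receptor for hepatocyte growth factor, lay below all controls in each knockdown library at -0.10 (limma, adjusted p = 0.572).

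**Figure D5:**
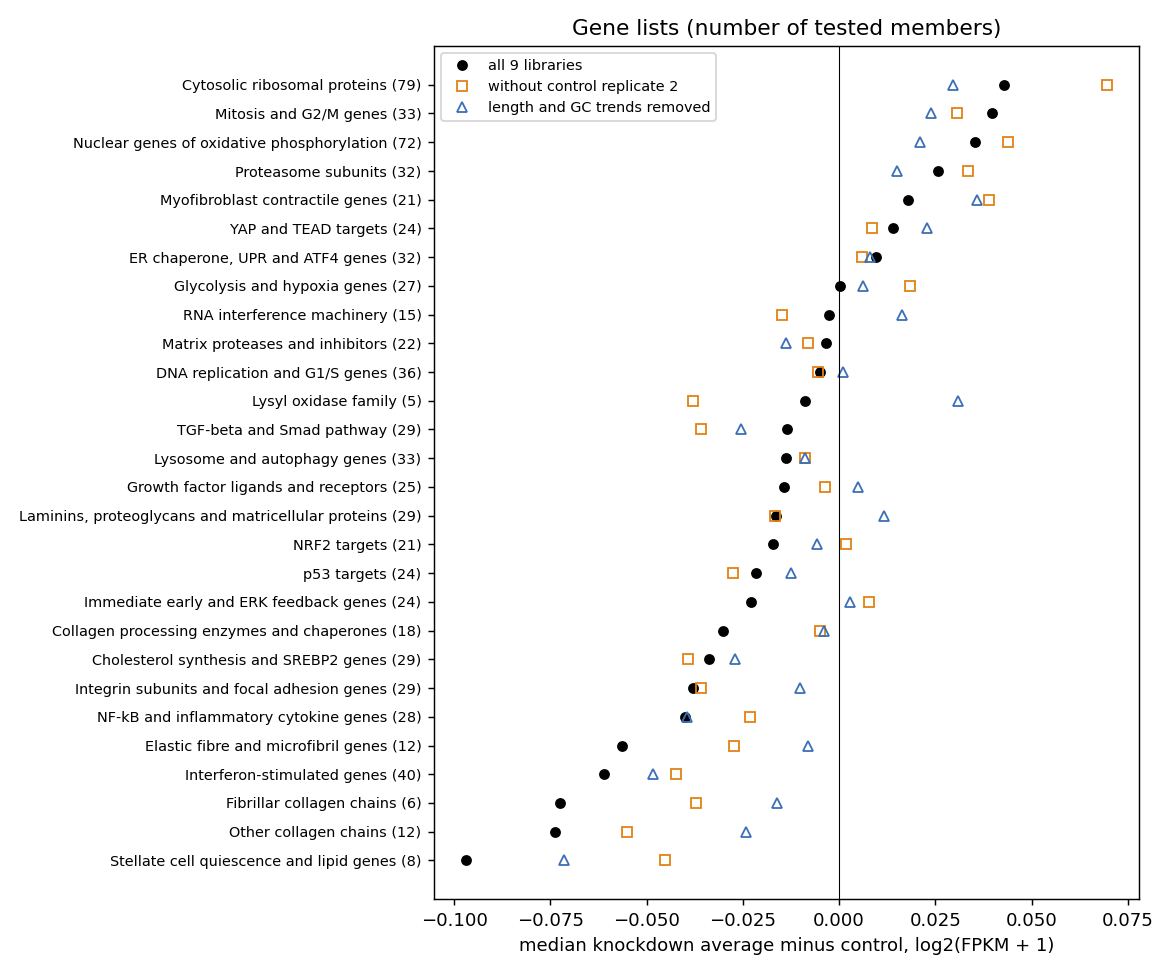
Median averaged log2 difference of the tested members of each of 28 lists (horizontal axis, log2(FPKM + 1); number of tested members in brackets), with all 9 libraries (black), without control replicate 2 (orange squares) and with length and GC trends removed (blue triangles). The black points run from -0.10 to 0.04, and the collagen and elastic fibre medians move toward 0 in both alternatives.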

How the data were processed

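The authors deposited FPKM values per gene and library; no label or file header names the tool that made them. TopHat2 2.0.10 and hg19 appear in the submitters' processing notes. The table's positions follow GRCh38 instead: of 17086 gene IDs matched to RefSeq GRCh38.p14, 91.3% had starts within 5000 bases. FPKM divides by length and total, so a library's preference for short or GC-rich transcripts moves such genes together.

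From these values log2(FPKM + 1) was computed, a scale that understates changes of low genes. One limma model (limma 3.58.1, R 4.3.3; empirical Bayes with mean-variance trend, 6 residual degrees of freedom) of 3 groups was fitted, with Benjamini-Hochberg adjustment over the 11808 genes tested and a threshold of 0.05. Intervals are 95% and unadjusted. The model was also run on simulated data, drawn as independent normal values. These held no length or GC slope, so that run does not bear on the slope of control replicate 2. GC content came from the GENCODE v29 transcript nearest in length, for 99.8% of tested genes, and trends were removed with natural splines of 4 degrees of freedom.

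Named genes were LOX and LOXL1, then, as none passed, the 10 higher and 10 lower genes of smallest p with a mean of 5 FPKM or more and all 6 knockdown libraries on one side of the controls, and from each list the 4 members, or fewer, of smallest p. List members that lay on one side of the controls and the 14 fibrosis genes were added after their values were seen. The members and lists were chosen with earlier results of these data known. Alternatives, 18 in number for the averaged contrast, were other scalings, filters and pseudocounts, no trend, a replicate block, removed trends, pooled knockdowns and each library left out. Those for the count of genes on one side of the controls were chosen after seeing the data. No siRNA sequence stands in the sources used here, so none is shown. Some genes are not reported here.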

Additional observations from a re-analysis of the deposited data

Results flagged for a closer look

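In 5 genes named above, the direct comparison of the knockdowns passed its own test, so that the averaged value joins unequal effects. The log2 difference, LOX siRNA minus LOXL1 siRNA, was -0.83 for LOX (SE 0.06, limma, adjusted p = 6.64e-05) and 0.71 for LOXL1 (SE 0.09, adjusted p = 0.0063), the targets themselves. It was -0.36 for HAS2 (SE 0.05, adjusted p = 0.0146), 0.36 for CDC23 (SE 0.04, adjusted p = 0.00152) and 0.40 for NPTXR (SE 0.07, adjusted p = 0.0375). HAS2, CDC23 and NPTXR each lay outside the control range in 3 of 3 LOXL1 siRNA libraries. In LOX siRNA libraries NPTXR lay below the controls and CDC23 above them in 3 of 3, and HAS2 overlapped them.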

How the results depend on the processing

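The averaged contrast called 0 genes in the reported fit and 1 gene without the mean-variance trend (NPTXR, adjusted p 0.0469), 1 with low values unfiltered, and 0 to 1 with each library left out, the 1 being LIMS4 without LOX siRNA replicate 1. Its genes at an unadjusted p under 0.05 numbered 693 to 1458 with 1 library left out, the highest without control replicate 3. With 1 library left out, the 336 genes on one side of the controls became 429 to 1345, of 11781 to 11791 genes tested. There were 691, 975 and 1345 without control replicates 1, 2 and 3. There were 512 without LOX siRNA replicate 3 and 520 without LOXL1 siRNA replicate 1. Fewer libraries make that order easier to meet, so these counts cannot be set beside the 336. Why they differ from each other was not tested. Median-ratio scaling gave 199 above and 152 below.

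The 25 genes between the knockdowns became 11 under quantile normalization, 8 without the trend, 4 without the filter and 5 to 62 with 1 library left out; counts moved by over 1.5 times were 14 and 62 without control replicates 1 and 2, 9, 5 and 5 without LOX siRNA replicates 1 to 3, and 6, 13 and 39 without LOXL1 siRNA replicates 1 to 3. LOX siRNA against control went from 1 to 2 without the filter or with length and GC trends removed, and to 1 to 2 with 1 library left out. LOXL1 siRNA against control went from 9 to 22 with the trends removed and to 6 to 15 with 1 left out (15 without LOXL1 siRNA replicate 3). Control libraries enter the comparison between knockdowns through the shared spread and the filter. The cause of these changes was not tested.

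Signs that turned were all near 0. With the trends removed, COL5A1 was 0.0040, COL18A1 0.0037, FN1 0.024 and LOXL2 0.031. Under quantile normalization, TIMP1 was -0.020 and SPARC -0.019. With 1 library left out the averaged value ran from -0.038 to 0.066 for LOXL4, -0.053 to 0.047 for COL1A2, -0.041 to 0.042 for FN1, -0.085 to 0.013 for ACTA2, -0.051 to 0.083 for TIMP1, -0.038 to 0.041 for LOXL2 and -0.010 to 0.039 for SPARC.

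With the replicate number as a block, the averaged contrast called 0 genes, the comparison between knockdowns 15, and LOX and LOXL1 siRNA against control 1 and 6. Deviations of same-numbered libraries correlated at -0.0676 to 0.0253 over 9 pairs, and 0 libraries correlated best with their own number, so the numbers were not read as pairs.

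The limits are 3 libraries a group, a control that stands apart in a group of 3, and FPKM without counts, so that counting error per gene is unknown.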
